A study of Drosophila melanogaster with 31 samples.

Results

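The genes described here are 7 genes of myoblast fusion and muscle differentiation in *Drosophila melanogaster*: *kirre* (CG3653), *sns* (CG33141), *rols* (CG32096), *blow* (CG1363), *betaTub60D* (CG3401), *Mlc2* (CG2184) and *up* (CG7107). They were chosen by name, as every probe set of the array that carries one of these symbols. This gave 8 probe sets (*kirre* has 2) for 7 of the 11982 genes measured. The arrays come from a study of the cells that form chordotonal organs, the stretch and sound receptors of the fly. The muscle genes were not chosen for a role in that lineage, and whether its cells express them was not tested. They were followed here through every sorted fraction, in wild-type embryos and in embryos mutant for the proneural gene *ato* (*atonal*).

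Embryos carried the transgene of the single line atoGFP.7, in which a fragment from upstream of *ato* drives GFP, in a w118 background. Whole embryos were dissociated and the cells were separated by flow cytometry into GFP+ and GFP− fractions. In wild type the GFP+ fraction holds chordotonal precursors and their progeny and also other cells that use *ato*, such as those of the developing larval eye. The GFP− fraction was drawn from the other cells of the embryo, muscle precursors included. Wild-type embryos were taken 5.75 to 6.75 h (t1), 6.75 to 7.75 h (t2) and 7.75 to 8.75 h (t3) after egg laying. Mutant embryos (atoGFP.7;ato(mutant);w118) carried the *ato* allele that the study names ato1, a presumed null, together with the same transgene, and were taken at t1 only. By the study's account, the GFP+ cells of these embryos largely do not become chordotonal precursors and stay ectodermal. Mutant and wild-type GFP+ fractions therefore differ in cell type as well as in genotype. Each group had 4 arrays, except wild-type GFP− at t3 with 3, which makes 31 arrays in 8 groups. The values are log2 intensities, so that a difference of 1 is a factor of 2.

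Somatic muscles of the fly embryo form when a founder cell fuses with fusion-competent myoblasts. The founder carries the adhesion receptor Kirre (also called Duf) with its relative Rst, and the fusion-competent cell carries their partners Sns and Hbs. Receptor contact recruits cytoplasmic proteins, Rols (Antisocial) behind Kirre in the founder and Blow at the actin-rich focus of the fusion-competent cell, and the fused cell then builds myofibrils. Kirre, Rst, Sns and Hbs also act outside muscle, in the eye and in nephrocytes for example, so that none of the receptor genes is a marker of muscle alone.

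The sorting marker itself was checked first. At t1 *ato* read 12.31 ± 0.10 (SD, n = 4) in the GFP+ fraction, against 8.68 ± 0.11 (n = 4) in the other, and at t3 8.10 ± 0.35 (n = 4) against 6.41 ± 0.49 (n = 3). In the mutant, where *ato* transcript was still measured, it read 11.54 ± 0.33 (n = 4) against 7.32 ± 0.09 (n = 4). The fractions thus differed in *ato* in wild type, by 12.4-fold at t1 and 3.22-fold at t3, and in the mutant, by 18.6-fold. The t3 arrays were the least uniform: 3 of them, GFP+ replicates 3 and 4 and GFP− replicate 3, had array weights of 0.418, 0.432 and 0.460, where the highest weight was 1.71 and a lower weight means values farther from the fitted group means. Mesoderm regulators were read in the GFP+ fraction as well, at lower levels at t1. No detection calls were used, so for low readings presence and background cannot be told apart. Summed over 10 measured mesoderm regulators, the GFP+ arrays lay between 10.06 and 10.53 at t1 and the GFP− arrays between 13.04 and 13.17. All differences between fractions below are for mixed cells, where fewer cells of a type and less RNA per cell cannot be told apart.

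The receptor gene *kirre* was read by 2 probe sets, and only 1 of them varied. The brighter read 6.83, 6.89, 6.74 and 6.91 in GFP− cells at t1 and 4.94, 6.02, 5.37 and 5.42 in GFP+ cells. At t2 it read 8.46, 8.21, 8.29 and 8.16 in GFP− cells and 6.14, 5.94, 5.88 and 5.97 in GFP+ cells, and at t3 8.55, 8.40 and 8.28 in GFP− cells and 7.88, 7.54, 8.04 and 7.60 in GFP+ cells. No GFP+ array reached the lowest GFP− array of its own time, and the fractions came closest at t3. The type of this probe set (Affymetrix suffix s) means that its probes can match transcripts of more than 1 gene, although the platform's table names *kirre* alone. The other probe set had group means between 4.69 and 4.98 and passed in no comparison, so all later values for *kirre* are those of the brighter one.

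The level of *kirre* can be followed through all 8 groups. From the lowest mean to the highest these were mutant GFP+ (5.21), GFP+ t1 (5.44), GFP+ t2 (5.98), GFP− t1 (6.84), mutant GFP− (7.50), GFP+ t3 (7.77), GFP− t2 (8.28) and GFP− t3 (8.41). Neighbours in that order overlapped array by array for the 3 lowest groups, for mutant GFP− and GFP+ t3, and for GFP− t2 and t3. The other neighbours did not overlap.

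*sns*, which encodes the receptor of fusion-competent myoblasts, was a weak signal at t1 and grew over time. It read 4.39, 4.46, 4.52 and 4.44 in GFP+ cells and 5.06, 4.65, 5.02 and 4.68 in GFP− cells at t1. At t3 it read 5.48, 5.44, 5.63 and 5.65 in GFP+ cells and 6.21, 6.39 and 6.67 in GFP− cells. The fractions did not overlap at t1, t2 or t3, and the GFP+ cells at t3 (mean 5.55) stood where the GFP− cells had stood at t2 (mean 5.58).

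The gene for the founder-cell adaptor, *rols*, ran from near 5 to above 10. Its arrays read 4.96, 5.15, 5.33 and 5.40 in GFP+ cells and 6.77, 6.97, 7.07 and 7.01 in GFP− cells at t1. At t2 they read 5.87, 5.85, 5.64 and 5.42 in GFP+ cells against 7.87, 7.88, 7.86 and 7.86 in GFP− cells. At t3 they read 9.28, 8.95, 9.73 and 8.95 against 10.13, 10.07 and 10.19. The GFP+ arrays were thus the lower at each time, while every GFP+ array at t3 lay above every GFP− array at t2. The *rols* probe set is of the same type as that of *kirre*.

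*blow*, needed for actin remodelling on the fusion-competent side, also rose in both fractions, from a smaller initial gap than that of *rols*. At t1 it read 5.22, 5.19, 5.35 and 5.29 in GFP+ cells and 5.97, 6.17, 5.92 and 6.24 in GFP− cells. At t3 the GFP+ arrays read 8.46, 8.79, 9.29 and 8.19 and the GFP− arrays 9.29, 9.60 and 9.73. The fractions did not overlap at t1 or t2. At t3 the highest GFP+ array, replicate 3, equalled the lowest GFP− array to 2 decimals.

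*betaTub60D*, which encodes the beta-tubulin of the mesoderm and developing muscle, showed the widest gap between fractions among the 7 genes at t1 and at t2. At t1 it read 7.43, 7.97, 8.41 and 8.55 in GFP+ cells and 10.60, 10.70, 10.78 and 10.83 in GFP− cells. At t2 it read 8.42, 8.66, 8.08 and 8.26 against 11.30, 11.34, 10.96 and 11.12. By t3 the GFP+ arrays had come up to 12.30, 12.13, 12.39 and 11.68, still below the GFP− arrays at 12.72, 12.85 and 12.63. The groups did not overlap at any time. For *rols*, *blow* and *betaTub60D* the 8 group means fell in 1 common order, from mutant GFP+ through GFP+ t1, GFP+ t2, GFP− t1, mutant GFP−, GFP− t2 and GFP+ t3 to GFP− t3.

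The genes of the contractile apparatus were near the bottom of the arrays' range until t3. *Mlc2*, which encodes the regulatory light chain of muscle myosin, lay between 3.42 and 3.76 on all 16 wild-type arrays of t1 and t2. At t3 it read 5.40, 4.54, 4.22 and 4.36 in GFP+ cells and 5.69, 5.34 and 4.20 in GFP− cells. The spread at t3 was large in both fractions and the lowest array of all 7 was GFP− replicate 3. *up*, which encodes troponin T of the thin filament, lay between 3.45 and 4.05 at t1 and t2. At t3 it read 4.59, 4.11, 4.10 and 3.90 in GFP+ cells and 4.41, 4.60 and 3.99 in GFP− cells, so that the fractions overlapped at every time.

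**Figure D1:**
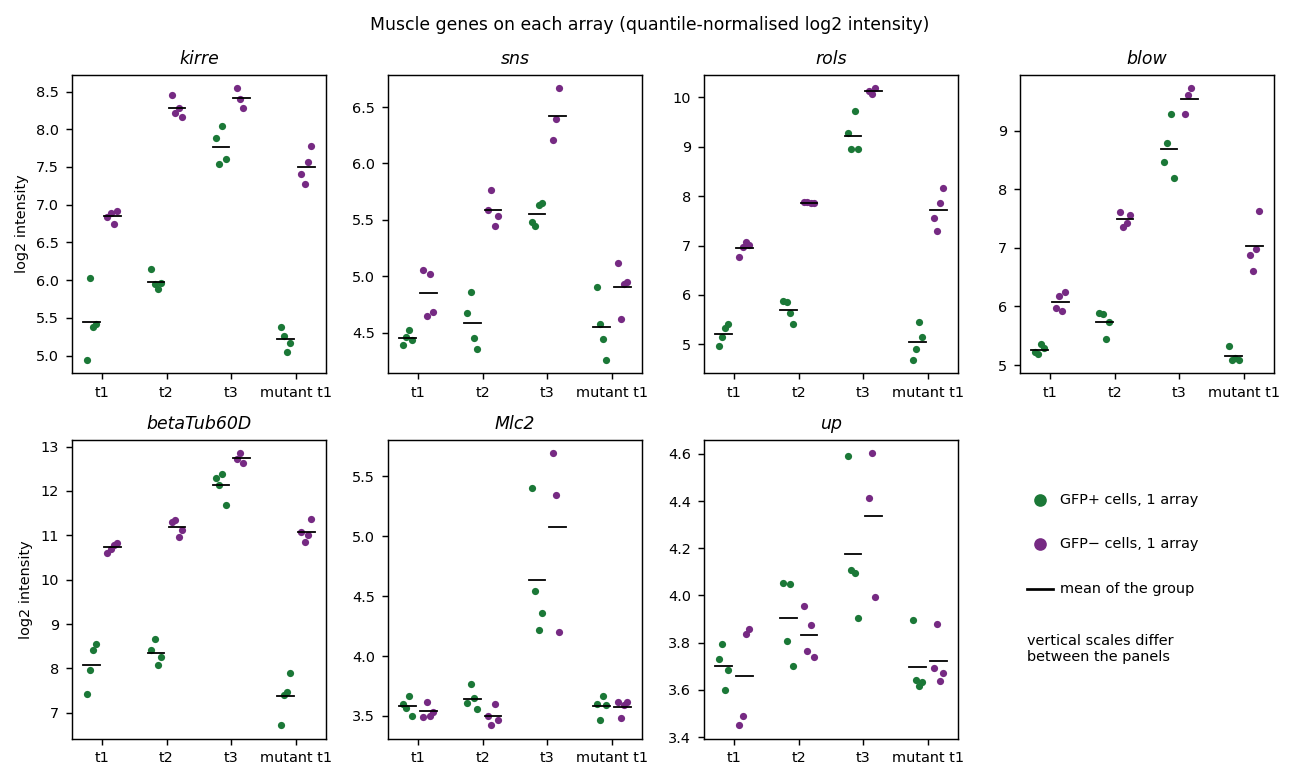
Log2 intensity of the 7 genes on each of the 31 arrays, at t1, t2 and t3 and in the *ato* mutant at t1, for GFP+ (green) and GFP− (purple) cells. Points are arrays, black lines are group means and each panel has its own vertical scale. The GFP+ points of *kirre*, *sns*, *rols*, *blow* and *betaTub60D* lie below the GFP− points at t1, t2 and t3, and *Mlc2* leaves its floor only at t3.

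Whether the muscle genes were depleted in cells sorted by the *ato* reporter was asked by comparing GFP+ with GFP− cells at each time. To pass, a gene had to differ by 1.5-fold or more and to have a limma adjusted p no larger than 0.01, the study's own limits. At t1, 4 of the 7 genes were lower in GFP+ cells, where 4.77% of all genes were lower, and none was higher, where 2.45% of all genes were. The groups of 5 genes did not overlap, *sns* being the fifth (13.9% of all genes were lower without overlap). *betaTub60D* was 6.23-fold lower (log2 −2.64, SE 0.20, adjusted p = 8.15e-12), *rols* 3.35-fold, *kirre* 2.65-fold and *blow* 1.76-fold. *sns* did not pass (log2 −0.40, SE 0.13, adjusted p = 0.0287). *Mlc2* and *up* differed by 0.04 each, with intervals from −0.36 to 0.44 and from −0.21 to 0.30. Without adjustment 5 genes were lower and none higher at p under 0.05. The share of all genes at that limit is not given, here or where such counts recur below, so they cannot be judged against it. The median of the 7 was −0.81, against 0.01 over all genes.

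At t2, 5 of the 7 were lower and none higher (5.66% of all genes were lower and 3.29% higher), because *sns* now passed as well. The same 5 had groups that did not overlap, against 15.8% of all genes in this direction. *betaTub60D* was 7.07-fold lower, *kirre* 4.91-fold (log2 −2.30, SE 0.14, adjusted p = 8.72e-14), *rols* 4.51-fold, *blow* 3.36-fold and *sns* 2.00-fold. *Mlc2* and *up*, still at their floor, differed by 0.15 and 0.07 and did not pass. The median of the 7 was −1.75, against 0.01 over all genes.

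At t3 the gaps were smaller for every gene that had passed at t2. Those lower in GFP+ cells were 4 of 7, with 4.36% of all genes lower and 2.97% higher: *rols* by 1.87-fold (log2 −0.90, SE 0.18, adjusted p = 0.000363), *sns* by 1.83-fold, *blow* by 1.81-fold and *kirre* by 1.56-fold (adjusted p = 0.00291). *betaTub60D*, the most depleted at t1 and t2, was 1.53-fold lower and did not pass (adjusted p = 0.0497), although its groups did not overlap. The groups were apart for 5 genes, *blow* by less than 0.01, against 12% of all genes in this direction. No gene was higher, with 6 lower and 0 higher at an unadjusted p under 0.05. *Mlc2* (log2 −0.45, SE 0.21, adjusted p = 0.175) and *up* (log2 −0.16, SE 0.14) had overlapping groups. The t3 calls depended on the spread borrowed from the other groups: when limma was fitted to the arrays of t3 only, none of the 7 passed (adjusted p from 0.024 for *sns* to 0.0722 for *blow* among the 4), and 4 passed again when GFP+ replicate 3 was also left out. The call for *kirre* was lost without GFP− replicate 1 or 2 or GFP+ replicate 2 or 4, and *Mlc2* passed as lower without GFP− replicate 3 (log2 −0.89, adjusted p = 0.000318) or GFP+ replicate 1 (log2 −0.71, adjusted p = 0.00764).

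**Figure D2:**
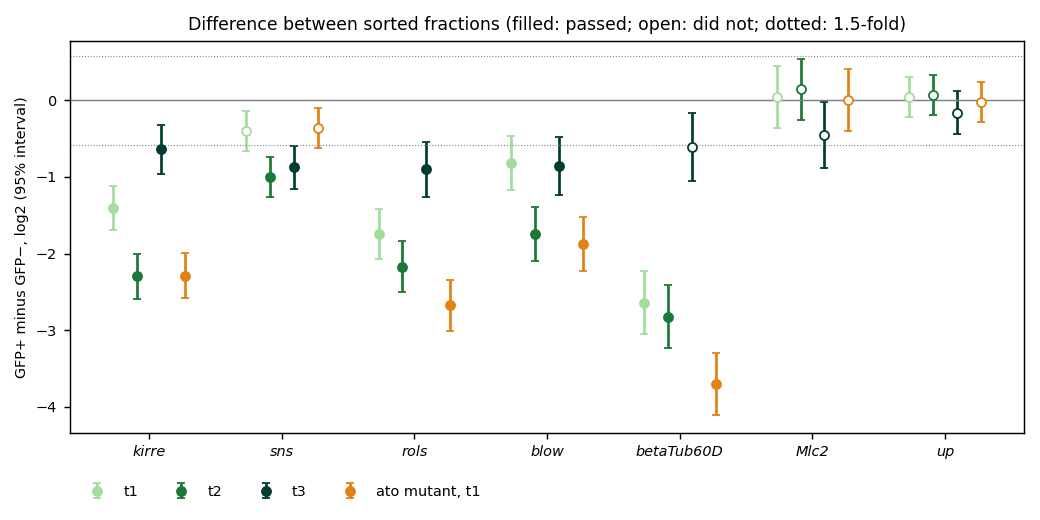
Difference between GFP+ and GFP− cells (log2, with the 95% interval of the limma model) for each gene at t1, t2 and t3 and in the *ato* mutant at t1. Filled points passed, open points did not, and dotted lines mark 1.5-fold. *betaTub60D* moves from −2.82 at t2 to −0.61 at t3, while *Mlc2* and *up* stay near 0 except for −0.45 of *Mlc2* at t3.

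The smaller gap at t3 was tested as a change of the GFP+ to GFP− ratio. From t2 to t3 the ratio rose for 3 of the 7 genes, with 3.16% of all genes rising: *betaTub60D* by 2.21 (SE 0.29, adjusted p = 3.05e-06), *kirre* by 1.66 (SE 0.21, adjusted p = 1.5e-06) and *rols* by 1.27 (SE 0.24, adjusted p = 0.000425), all log2. The ratio of *blow* changed by 0.89 and did not pass (adjusted p = 0.0218). That of *sns* changed by 0.13 with an interval from −0.25 to 0.51. From t1 to t3 only *betaTub60D* passed (log2 2.03, SE 0.29, adjusted p = 1.22e-05), where 2.78% of all genes rose. The change of *kirre* over the same span was 0.76 (adjusted p = 0.0205) and passed without GFP+ t1 replicate 2 (0.96, adjusted p = 0.000429). That replicate had read 6.02 where the other t1 GFP+ arrays read 4.94 to 5.42. None of the 7 ratios passed from t1 to t2 (0.467% of all genes did in either direction), and 3 were lower and 0 higher at an unadjusted p under 0.05. *kirre* changed by −0.89 (adjusted p = 0.0222) and passed without GFP+ t1 replicate 1 (−1.06, adjusted p = 0.00188) or with array weights (adjusted p = 0.00745). *blow* changed by −0.93 (adjusted p = 0.0617) and passed in a fit of the t1 and t2 groups (adjusted p = 0.000353) or with array weights (adjusted p = 0.00417). These comparisons share arrays, since t1, t2 and t3 each enter more than 1 of them.

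The time course was then followed within each fraction. In GFP− cells all 7 genes were higher at t3 than at t1, where 13.6% of all genes were higher. *blow* rose 11.0-fold (log2 3.46, SE 0.18, adjusted p = 9.27e-16), *rols* 9.01-fold, *betaTub60D* 4.01-fold, *sns* 2.97-fold, *kirre* 2.95-fold, *Mlc2* 2.91-fold and *up* 1.60-fold. The groups of t1 and t3 did not overlap for any of the 7, which held for 21.9% of all genes in this direction. Only the call for *up* was lost when a single array was left out, GFP− t3 replicate 2 (log2 0.55, adjusted p = 0.00345).

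The genes did not rise in step. From t1 to t2 in GFP− cells 4 of the 7 passed as higher, where 5.18% of all genes were higher: the receptors *kirre* (2.70-fold) and *sns* (1.66-fold), *rols* (1.88-fold) and *blow* (2.66-fold). From t2 to t3, 5 of 7 passed (15.6% of all genes): *rols* (4.79-fold), *blow* (4.15-fold), *Mlc2* (2.99-fold), *betaTub60D* (2.94-fold) and *sns* (1.79-fold). *kirre* had thus made 91.7% of its log2 rise by t2, with 1.43 in the first step and 0.13 in the second. The second step minus the first was −1.30 (SE 0.25, adjusted p = 7.97e-05), where 16.3% of all genes had a smaller second step. The opposite held for *rols* (second minus first 1.35, adjusted p = 0.00028) and for *Mlc2* (1.62, adjusted p = 0.000284), where 21.2% of all genes had a larger second step. For *sns*, *blow*, *betaTub60D* and *up* the difference of the steps did not pass. In GFP− cells the reading of *kirre* was therefore near its t3 level by t2, while that of *rols* was not. The contractile gene *Mlc2* was at its floor until the last interval. The cells are mixed, so these readings give no order of events within founder cells. Of the 4 calls in the first step, 2 (*sns* and *rols*) were lost when limma's treat tested against 1.5-fold.

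In GFP+ cells the calls came between t2 and t3. None of the 7 genes passed from t1 to t2 (at an unadjusted p under 0.05, 3 were higher and 0 lower), where 3.82% of all genes were higher. *kirre* came closest, at 1.46-fold (log2 0.54, SE 0.14, adjusted p = 0.0032), under the fold limit. Without GFP+ t1 replicate 2 it passed (log2 0.74, adjusted p = 1.85e-05). From t2 to t3, 6 of 7 were higher (16.6% of all genes): *betaTub60D* by 13.6-fold (log2 3.77, SE 0.20, adjusted p = 4.49e-16), *rols* by 11.6-fold, *blow* by 7.70-fold, *kirre* by 3.45-fold, *Mlc2* by 1.98-fold and *sns* by 1.96-fold. *up* was the exception, at 1.21-fold (adjusted p = 0.0676).

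Over the whole span from t1 to t3, 6 of 7 were higher in GFP+ cells, where 14.1% of all genes were higher. *betaTub60D* rose 16.4-fold, *rols* 16.2-fold, *blow* 10.7-fold, *kirre* 5.02-fold, *sns* 2.14-fold and *Mlc2* 2.07-fold, while *up* stood at 1.39-fold (adjusted p = 0.00232), under the fold limit. In these cells *kirre* had only 23.3% of its log2 rise by t2, against 91.7% in GFP− cells. The second step was the larger for *kirre*, *sns*, *rols*, *blow* and *betaTub60D*, by 0.84 (*sns*) to 3.50 (*betaTub60D*) on the log2 scale, where 21% of all genes had a larger second step. For *Mlc2* (0.92, adjusted p = 0.0267) and *up* (0.07, adjusted p = 0.809) the difference of the steps did not pass.

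**Figure D3:**
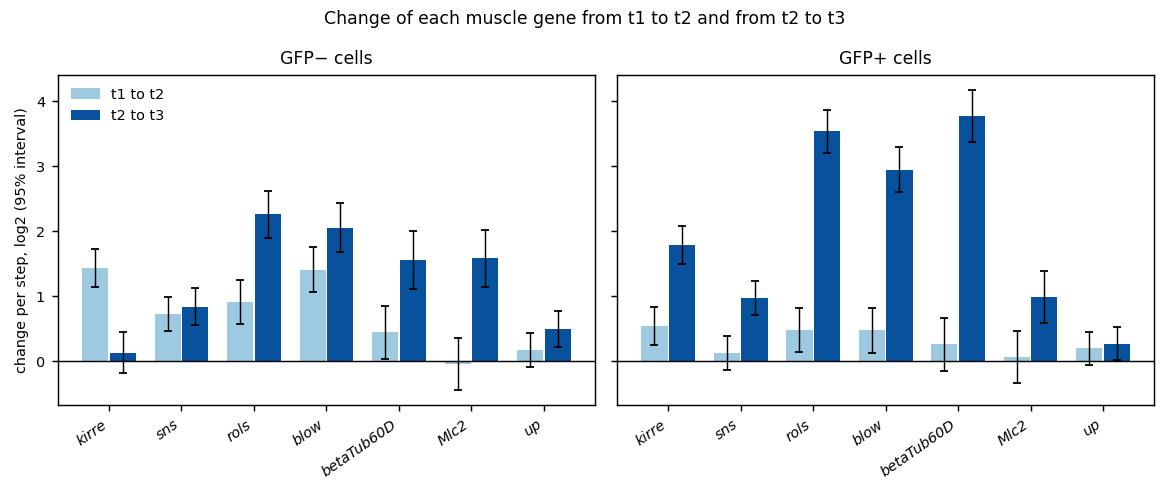
Change of each gene from t1 to t2 (pale) and from t2 to t3 (dark) in GFP− and GFP+ cells, as log2 differences of group means with 95% intervals of the limma model. In GFP− cells *kirre* changes by 1.43 and then 0.13. In GFP+ cells its steps are 0.54 and 1.78, and *betaTub60D* has steps of 0.27 and 3.77.

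Set against the earlier GFP− cells, the GFP+ cells of t3 did not stand at the same place for every gene. Against GFP− cells of t2 they were higher for *rols* (log2 1.36), *blow* (1.20), *Mlc2* (1.13) and *betaTub60D* (0.95), which makes 4 of 7 where 15.9% of all genes were higher. *sns* differed by −0.03 (SE 0.13, adjusted p = 0.857) and *kirre* by −0.51 (adjusted p = 0.0033, under the fold limit). This comparison joins age and fraction, whose shares in it cannot be told apart.

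Summed levels of marker genes also changed in the GFP+ fraction as the muscle genes rose. The summed level of 10 mesoderm regulators lay there between 10.06 and 10.53 at t1 and between 11.39 and 12.41 at t3. That of 8 haemocyte (blood cell) markers lay between 9.74 and 10.32 and then between 11.63 and 12.23. That of 8 chordotonal precursor markers was lower at t3, between 12.53 and 13.33 after 14.42 to 14.57 at t1. Of these, *ato* (mean 12.31 at t1, 8.10 at t3), *cato* (10.25, 8.03), *sens* (12.67, 10.80), *nvy* (11.29, 9.28) and *phyl* (11.75, 10.28) were lower. *spdo* (11.79, 11.36) and *sv* (6.77, 6.49) changed less, and *Rfx* was higher (7.83, 8.22). By the study's account *ato* is expressed only transiently, as the precursors form. The haemocyte markers did not move as one. In GFP+ cells *gcm* (mean 8.91 at t1, 11.01 at t3), *srp* (7.35, 9.69), *Nplp2* (6.28, 7.93) and *Pxn* (5.53, 7.82) were higher at t3. *crq* (8.05, 8.09), *He* (3.39, 3.47) and *Hml* (4.70, 4.68) hardly changed, and *lz* was lower (4.37, 3.62). The brightest, *gcm*, weighs most in the sum, and which cells its signal came from was not tested. GFP+ t3 replicate 3 had the highest mesoderm and haemocyte sums of the 4 GFP+ arrays at t3, and the highest reading of *kirre*, *rols*, *blow* and *betaTub60D*. The ratio of GFP+ to GFP− rose from t1 to t3 for 8 of 10 mesoderm regulators (median log2 2.17) and for 3 of 8 haemocyte markers (*gcm*, *srp* and *Nplp2*), while it fell for the haemocyte marker *lz*. It fell for 6 of 8 chordotonal precursor markers (median log2 −1.57), where 2.02% of all genes fell. The part of these values in the change of the muscle genes was not tested.

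**Figure D4:**
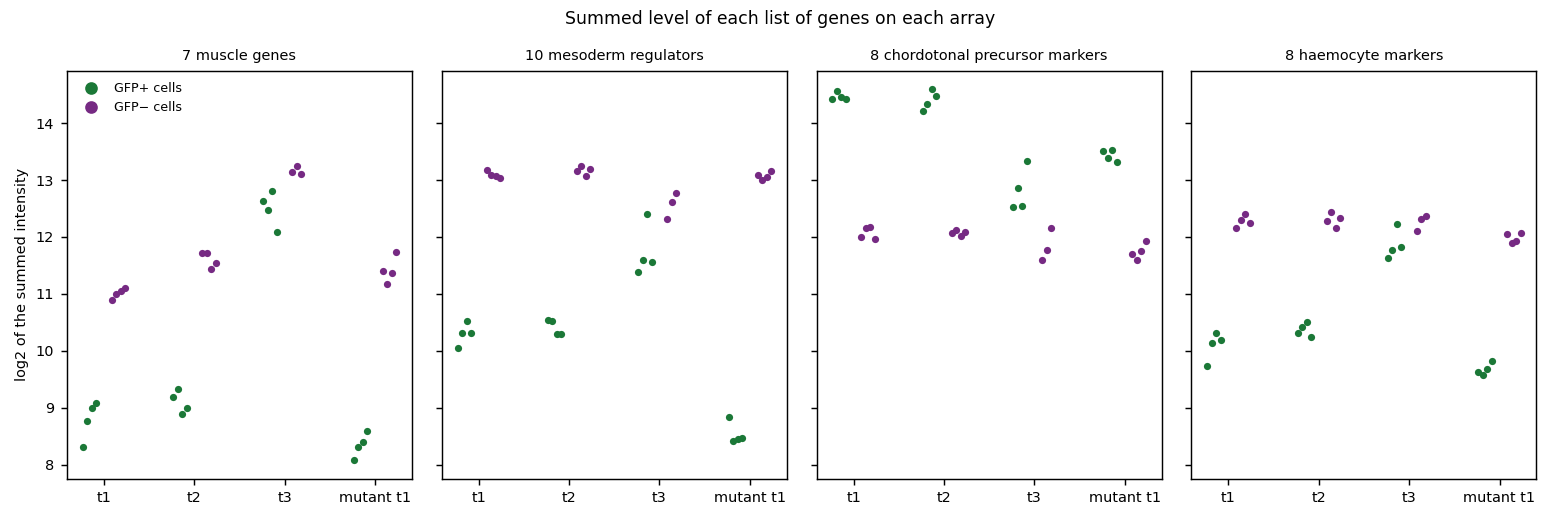
Log2 of the summed linear intensity of the 7 muscle genes and of 3 lists of marker genes on each array, at t1, t2 and t3 and in the *ato* mutant at t1, for GFP+ (green) and GFP− (purple) cells. In such a sum bright probe sets count for more than dim ones. The GFP+ points of the muscle genes, the mesoderm regulators and the haemocyte markers rise at t3, and those of the chordotonal precursor markers fall.

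In the *ato* mutant at t1 the same 4 genes as in wild type were lower in GFP+ cells, where 8.18% of all genes were lower, and none was higher, where 5.89% were. *betaTub60D* read 6.72, 7.40, 7.47 and 7.89 in mutant GFP+ cells and 11.08, 10.84, 11.00 and 11.37 in mutant GFP− cells, a 13.0-fold difference (log2 −3.70, SE 0.20, adjusted p = 1.01e-15). *rols* was 6.38-fold lower, *kirre* 4.89-fold and *blow* 3.66-fold, all 4 without overlap, against 17.1% of all genes in this direction. *sns* overlapped between the fractions and did not pass (log2 −0.36, adjusted p = 0.0332). *Mlc2* and *up* were at their floor in both fractions. The median of the 7 was −1.87, against 0.04 over all genes, and 5 were lower and 0 higher at an unadjusted p under 0.05.

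The gap was wider in the mutant than in wild type for these same 4 genes. As a difference of log2 ratios, mutant minus wild type, it was −1.06 for *betaTub60D* (SE 0.28, adjusted p = 0.0099), −1.06 for *blow* (SE 0.24, adjusted p = 0.00275), −0.93 for *rols* (SE 0.23, adjusted p = 0.00561) and −0.88 for *kirre* (SE 0.20, adjusted p = 0.00256), where 4.75% of all genes had a lower ratio. *sns* did not pass (0.04, interval from −0.32 to 0.41), and neither did *Mlc2* or *up*. These calls lay near the limit. A limma fit of the 4 t1 groups alone kept 1 of them, and ribosomal protein centring kept none. The count fell to 2 without any one of these arrays: wild-type GFP− replicate 1 or 2, wild-type GFP+ replicate 3 or 4, mutant GFP+ replicate 1 or 2, or mutant GFP− replicate 3 or 4. Those lost were *rols* and *betaTub60D*. Marker genes of several cell types differed in the GFP+ fraction as well. The median summed level in mutant against wild-type GFP+ cells was 8.46 against 10.32 for the mesoderm regulators, 13.44 against 14.44 for the chordotonal precursor markers, 9.65 against 10.16 for the haemocyte markers and 9.50 against 10.33 for 4 endoderm markers. In limma 8 of 10, 7 of 8, 3 of 8 and 3 of 4 of these genes were lower in mutant GFP+ cells, and none was higher. Their part in the wider gap was not tested.

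Most of that widening was on the GFP− side for 3 of the genes. *blow* read 6.89, 6.61, 6.98 and 7.64 in mutant GFP− cells, above every wild-type GFP− array of t1, and was 1.93-fold higher (log2 0.95, SE 0.17, adjusted p = 6.06e-05). *rols* read 7.55, 7.29, 7.86 and 8.16 and was 1.69-fold higher (adjusted p = 0.000504). *kirre* read 7.41, 7.27, 7.56 and 7.77 and was 1.58-fold higher (adjusted p = 0.000562), a call that was lost without mutant GFP− replicate 4 (log2 0.57). That array was the highest of its group for each of these genes. So 3 of 7 genes were higher in mutant GFP− cells, where 5.92% of all genes were higher. *betaTub60D* (log2 0.34, adjusted p = 0.261) did not pass, although its groups did not overlap either, as held for 13% of all genes in this direction. *sns*, *Mlc2* and *up* differed by 0.04 to 0.06.

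In mutant GFP+ cells none of the 7 genes passed against wild type, where 6.28% of all genes passed in either direction, and 1 was lower at an unadjusted p under 0.05. That gene was *betaTub60D* (log2 −0.72, SE 0.20, adjusted p = 0.0105, groups overlapping), which passed without wild-type GFP+ replicate 1 (−0.94, adjusted p = 0.000596) or mutant GFP+ replicate 4 (−0.89, adjusted p = 0.00204). *blow*, *rols* and *kirre* differed by −0.11, −0.17 and −0.23.

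The 3 genes that were higher in mutant GFP− cells are among the 4 that rose in wild-type GFP− cells between t1 and t2, so the mutant GFP− cells were also set against wild-type GFP− cells of t2. There *kirre* was lower in the mutant (log2 −0.77, SE 0.14, adjusted p = 3.92e-05) and so was *sns* (−0.68, SE 0.13, adjusted p = 4.77e-05), where 8.47% of all genes were lower. *rols* differed by −0.15, *blow* by −0.46 (adjusted p = 0.0324) and *betaTub60D* by −0.11, and none of these passed. Mutant GFP− cells of t1 thus lay between wild-type GFP− cells of t1 and of t2 in their mean level of *kirre*, *rols*, *blow* and *betaTub60D*, while *sns* differed by 0.05 from wild-type GFP− cells of t1 (interval from −0.21 to 0.31). The contractile gene *sls*, described in the last section, lay above both ages in mutant GFP− cells. Genotype and fly line differ together here, and a difference in staging cannot be told apart from them. Of the mesoderm regulators, 0 of 10 passed between mutant and wild-type GFP− cells in limma (with 2 higher and 3 lower before adjustment at p under 0.05). Their summed level was 13.00 to 13.17 in the mutant. In wild-type GFP− cells it was 13.04 to 13.17 at t1 and 13.07 to 13.25 at t2, so this sum cannot place the mutant between those ages. Single regulators moved both ways there from t1 to t2, such as *bap* (10.42 to 9.28), *bin* (10.00 to 8.53), *nau* (6.66 to 8.05) and *slou* (6.04 to 7.59).

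Further genes of fusion were read from a list beside the 7. Of 18 listed, 12 were measured, and at t1 2 were lower in GFP+ cells and 10 did not pass (median −0.07). These were *sing*, a membrane protein of fusing myoblasts, at 5.72-fold lower (log2 −2.52, SE 0.20, adjusted p = 1.81e-11) and *hbs*, the relative of *sns*, at 1.55-fold lower. *rst*, the relative of *kirre*, stood at 11.07 in GFP+ and 10.97 in GFP− cells at t1 and differed by 0.11 (adjusted p = 0.359). At t3 those lower were *sing* (2.22-fold, groups overlapping) and *Vrp1* (1.66-fold), which encodes a partner of the actin regulator WASp. *hbs* differed by 0.09 at t3, having risen 3.39-fold in GFP+ cells from t1. Among the same 12 genes, 6 rose and 1 fell in GFP+ cells from t1 to t3, led by *Vrp1* (4.76-fold), *hbs* and *sing* (3.39-fold each) and *mib2* (2.21-fold). The one that fell was *siz* (1.70-fold), which encodes an exchange factor for Arf6. In GFP− cells 4 rose, *Vrp1* by 6.95-fold, and *siz* fell there as well. In this span 14.5% of all genes fell in GFP− cells and 14.7% in GFP+ cells.

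Of 26 further contractile genes 19 were measured, and 2 were lower in GFP+ cells at t1: *Act87E*, a muscle actin, by 11.1-fold (log2 −3.48, SE 0.21) and *sls*, the fly titin, by 2.40-fold. At t3 these were lower by 1.94-fold and 1.76-fold with overlapping groups, and *Zasp52*, a protein of the Z-disc, by 1.65-fold. From t1 to t3, 9 of the 19 rose in GFP− cells and 9 in GFP+ cells, and none fell in either. *sls* rose 24.5-fold in GFP− and 33.4-fold in GFP+ cells. *Tm2*, a muscle tropomyosin, rose 3.47-fold and 2.96-fold, and *TpnC73F*, a troponin C, 2.96-fold and 1.93-fold. *Mlc2*, at 2.91-fold and 2.07-fold, was among genes of similar change, and *up*, at 1.60-fold and 1.39-fold, changed less than any of these 3.

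Regulators of mesoderm and muscle identity were read in the same way. All 10 measured of 13 were lower in GFP+ cells at t1, with a median of −3.17: *meso18E* by 12.3-fold, *twi* and *Him* by 10.1-fold, *lmd* by 9.25-fold and *bin* by 9.11-fold. Lmd (Lame duck) is the zinc-finger factor of fusion-competent myoblasts, on which *sns* expression depends. At t3, 6 of 10 were lower, *Him* by 2.65-fold, *nau* by 2.26-fold, *twi* by 2.15-fold, *lmd* by 2.14-fold and *meso18E* by 1.91-fold among them, while *bap*, *bin*, *zfh1* and *htl* did not pass. In GFP− cells, where the 7 muscle genes all rose from t1 to t3, 5 of the 10 regulators fell, by 1.55-fold (*htl*) to 6.35-fold (*bap*), with *bin*, *Him* and *twi* between them. *zfh1* (1.69-fold) and *slou* (2.05-fold) rose, and *lmd*, *nau* and *meso18E* did not pass.

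The profile over the 8 groups was compared between genes as the mean absolute difference of group means, each gene centred on its own mean. Among the 7 genes the nearest pairs were *Mlc2* and *up* (0.29), *sns* and *Mlc2* (0.30) and *rols* and *blow* (0.32), and the first 2 pairs are of genes with small changes throughout. Of all genes, those nearest to *rols* were *nemy* (0.22), *Adgf-A* (0.26) and *Pdp1* (0.26), a leucine-zipper factor of muscle gene control. *Adgf-A*, an adenosine deaminase, was also nearest to *betaTub60D* (0.25), before *kon* (0.29), a transmembrane protein of muscle attachment, and *kn* (0.33), a COE-family transcription factor. Nearest to *blow* were *CG46385* (0.16), *beat-IIa* (0.18) and *RyR* (0.22), the calcium release channel of muscle. *Mlc2* lay closest to *TpnC73F* (0.05), *Samuel* (0.07) and *betaTub97EF* (0.07), and *kirre* to *Gtpx* (0.10), *CG6310* (0.22) and *spidey* (0.24). *sns* lay closest to *CG7149* (0.12), *Karl* (0.13) and *Surf1* (0.13), and *up* to *GstD3* (0.04), *CG12672* (0.04) and *Cyp4aa1* (0.05). Likeness of this kind rests on 8 means, and for *sns*, *Mlc2* and *up*, whose group means span 1.97, 1.58 and 0.68, it describes shallow profiles.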

How the data were processed

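RNA of sorted cells was hybridised to Affymetrix Drosophila 2.0 arrays. Amplification is given as a one-cycle protocol in the labels and as a 2-cycle protocol in the study's methods. The authors summarised probes by RMA (AffyPLM) with quantile normalisation, and the deposited values are log2 intensities with array medians between 4.71 and 4.84. No raw intensities or detection calls were used here, so precision is limited by the number of arrays. One GFP− array of t2 (replicate 4) has a title and a source description that give different fractions, and the title was followed. Its *ato* reading was 8.70, where the other GFP− arrays of t2 read 8.55, 8.58 and 8.92. The GFP+ arrays of t2 read 12.33 to 12.65, so its *ato* level was that of a GFP− array.

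Of 18952 probe sets 183 controls were left out, and 18769 were tested in limma 3.58.1 (R 4.3.3), in 1 model that held all 8 group means, with Benjamini-Hochberg adjustment over all of them. The methods describe independent samples, but the labels do not name separate embryo collections, so the p values measure the spread between these samples, which may be technical. All adjusted p values are limma's, and ± values are SDs. A gene (11982 in all) took the value of its brightest probe set that names it alone in the platform's table. The steps were tested on simulated data first. The members, the lists and the tests were chosen with earlier results of these data known. Named besides the 7 genes are, from each list, up to 5 genes with the largest change each way at t1 and t3, genes that did not pass or went the other way where 5 or fewer, *ato*, and the 3 genes nearest in profile. *rst* and *hbs*, *siz*, *Tm2*, *TpnC73F* and the genes named over time or in the mutant were added after their values were seen. The comparisons of steps and across ages were added after the data were seen.

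Replicate numbers are shared by the fractions of a group. In the mutant, deviations of same-numbered GFP+ and GFP− arrays from their group means correlated at 0.21 to 0.30 in all 4 pairs, so the numbers were taken as pairs there, from the data alone. The study's methods do not mention a block. None was used in the model reported, and the block was an alternative. Also tried were a fit to the compared groups alone, leaving out dim probe sets, cyclic loess, array weights, centring each array on 41 ribosomal protein genes, robust estimates with a trend on intensity, limma's treat at 1.5-fold, a looser adjusted p (0.05), no fold limit, any probe set of a gene, and each array left out.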

Additional observations from a re-analysis of the deposited data

Results flagged for a closer look

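Among 56 groups of 4 arrays tested for 1 array far from the rest, 3 arrays stood apart, all in mutant GFP+ cells at t1, where chance alone sets apart about 1 in 20 groups. *blow* read 5.33 on replicate 1 against 5.11 on the nearest array, *up* read 3.90 on replicate 1 against 3.64, and the flat probe set of *kirre* read 4.65 on replicate 4 against 4.75. None of the 3 genes passed between mutant and wild-type GFP+ cells.

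The GFP+ to GFP− ratio differed between times for *kirre* (log2 1.66, t3 against t2), *rols* (1.27, t3 against t2) and *betaTub60D* (2.21, t3 against t2, and 2.03, t3 against t1). In each case the ratio was a depletion that became smaller. It differed between mutant and wild type at t1 for *kirre* (−0.88), *rols* (−0.93), *blow* (−1.06) and *betaTub60D* (−1.06), in each case a depletion that was larger in the mutant.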

How the results depend on the processing

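Of 2292 values of the 7 genes under alternatives, 2193 kept their side of the limits, 64 no longer passed and 35 newly passed. None that passed changed direction, but values that passed in neither fit could change sign and count among the 2193. With the count reported at 4 of 7 lower at t3, a fit of only the compared groups and a test against 1.5-fold (treat) gave 0 each, and leaving out single arrays gave 3 to 5. The count of 1 ratio that rose from t1 to t3 became 2 with a replicate block and 3 at an adjusted p of at most 0.05, and was 1 to 2 with single arrays left out (2 without GFP+ t1 replicate 2). The 3 genes higher in mutant GFP− cells became 0 with treat and 2 to 3 with single arrays left out. The count of 0 in mutant GFP+ cells became 1, *betaTub60D*, with a replicate block, without dim probe sets, with cyclic loess, with array weights and at an adjusted p of at most 0.05, and was 0 to 1 with single arrays left out. The 4 ratios lower in the mutant became 1 in a fit of only the t1 groups, 0 with ribosomal protein centring and 0 with treat, and 2 to 4 with single arrays left out. Where a fit held fewer groups or a test set a higher bar, that construction changed the count; otherwise the cause was not tested. Same-numbered fractions of wild type correlated at 0.07 to 0.33 at t1 (4 of 4 arrays highest with their own number), −0.02 to 0.06 at t2 (3 of 4) and 0.04 to 0.56 at t3 (2 of 3). The replicate block could place no partner for 1 array, GFP+ t3 replicate 4, and left it out. With the block the ratio of *blow* passed from t1 to t2 (−0.93, adjusted p = 0.00709) and from t2 to t3 (1.06, adjusted p = 0.000935), and the latter also passed without that array and with no block (1.06, adjusted p = 0.00357). The block changed no other count of the 7 genes.

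From t1 to t2, the 4 genes higher in GFP− cells became 2 with treat, and the 0 in GFP+ cells became 1, *kirre*, with cyclic loess, with no fold limit or without GFP+ t1 replicate 2. The remaining counts, at t1, at t2, in the mutant and from t1 to t3 in each fraction, stayed within 1.5 times of the reported ones. So did every count without both GFP+ t3 replicate 3 and GFP− t2 replicate 4, which was chosen after seeing the data. Ribosomal protein centring moved the median of all genes from 0.01 to 0.16 at t1 and from 0.04 to 0.31 in the mutant, and from −0.04 to 0.19 between mutant and wild-type GFP− cells, and every gene moved equally with it. Of the genes of the whole array that passed at t1, 33.9% were higher as reported and 54.4% with that centring, at t2 36.8% and 47.1%, at t3 40.6% and 55.5%, and in the mutant 41.9% and 72.7%. Cyclic loess raised this share from t1 to t3 from 48.3% to 64.7% in GFP− and from 49.0% to 62.5% in GFP+ cells, and between mutant and wild-type GFP− cells from 57.5% to 72.0% (84.8% with the centring). *Mlc2* and *up* did not reach the brightness limit, so the fit without dim probe sets held 5 of the 7 genes.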

Other observations

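The muscle titin gene *sls* was the gene of the fusion and contractile lists that differed most between mutant and wild type. It was 15.4-fold higher in mutant than in wild-type GFP− cells at t1 (log2 3.94, SE 0.16, adjusted p = 4.73e-18 in limma) and 5.81-fold higher in mutant GFP+ cells, with no overlap in either. Its mean in wild-type GFP− cells was 5.62 at t1 and 8.43 at t2, so the mutant GFP− mean at t1 lay above both. Of the other 18 contractile genes measured, *Mlp84B* also rose in mutant GFP− cells, by 1.64-fold, and 17 of the 19 in all did not pass. *Vrp1* (1.69-fold) and *hbs* (1.56-fold) were higher and *siz* was lower (1.87-fold) in the same cells.

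In mutant GFP+ cells 8 of 10 mesoderm regulators were lower than in wild-type GFP+ cells, *htl*, an FGF receptor of the mesoderm, by 16.1-fold and *lmd* by 4.83-fold, and their summed level was 8.41 to 8.83 against 10.06 to 10.53. *Act87E* was 8.13-fold lower. None of the 7 muscle genes passed in that comparison. The summed level of 3 tendon cell markers was 11.70 to 12.48 in GFP+ and 11.38 to 11.48 in GFP− cells at t3, and 2 of the 3 were higher in GFP+ cells.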
